A study of Mus musculus with 4 samples.

Results

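The regions with the highest pileup in both chromatin immunoprecipitation (ChIP) libraries of phosphorylated STAT3 (pSTAT3) were examined. Pileup is the number of sequenced fragments stacked at the summit of a peak, background included. A region of the authors' table of reproducible regions was a member where it shared at least 1 bp with a peak of pileup 100 or more in each library. The rule gave 807 of 12925 reproducible regions, which is 6.24%. The cells were primary cortical oligodendrocyte progenitors from C57BL/6 mice, kept in medium with PDGF-AA at 10 ng/ml and bFGF at 20 ng/ml, and all of them received ciliary neurotrophic factor (CNTF) at 100 ng/ml for 15 min. The antibody recognised STAT3 phosphorylated at tyrosine 705. The group held 2 ChIP libraries, and the labels also give 2 input libraries, which were not analysed here. No group without CNTF was analysed here, so the values are levels after CNTF, not responses to it. The labels do not say whether the libraries came from separate cultures, and lysed cells were pooled before shearing, so the spread between the libraries may be technical. Genomic DNA carries no record of transcripts, and the cell type could not be checked against its markers.

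CNTF is a cytokine of the interleukin-6 family. Its receptor complex contains gp130 and the LIF receptor, whose associated JAK kinases phosphorylate STAT3 at a tyrosine near its C terminus. Phosphorylated STAT3 forms a dimer, enters the nucleus and binds a palindromic element, in which the half-sites TTC and GAA are set apart by a short spacer. Among its best known target genes are those for its own feedback inhibitor SOCS3 and for STAT3 itself, and in astrocytes the gene for the intermediate filament GFAP. Oligodendrocyte progenitors divide in response to PDGF and bFGF and give rise to myelinating oligodendrocytes.

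Promoter sequence could be read where a region lay over a RefSeq promoter window, which holds the 250 bases before a transcription start and the 50 after it. The sequences below are from that RefSeq table on GRCm38.p6, written 5′ to 3′ in the direction of the gene, and each ends before the start. The first set shows promoters under members that hold a STAT element, with the element TTCNNNGAA in capitals. Ordered by library 2, they ran from Akt2 (272 and 186 fragments in libraries 1 and 2) to Irf1 (186 and 119). No rule set beforehand chose them. Other members with the element were left out, among them Etv6 (298 and 205 fragments), Cep128 (279 and 161) and Pih1d1 (274 and 179). Their elements lay 69, 51 and 14 bp from the mean summit of both libraries.
Akt2 (chr7:27591366-27591426, plus strand): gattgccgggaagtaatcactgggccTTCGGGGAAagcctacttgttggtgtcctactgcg
Gtf2a2 (chr9:70012464-70012524, plus strand): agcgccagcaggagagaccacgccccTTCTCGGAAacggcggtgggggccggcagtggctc
Nsmce1 (chr7:125491598-125491658, minus strand): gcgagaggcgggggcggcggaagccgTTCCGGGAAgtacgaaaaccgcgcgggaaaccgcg
Fastk (chr5:24445262-24445322, minus strand): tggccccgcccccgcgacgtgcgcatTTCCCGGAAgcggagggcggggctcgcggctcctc
Ripk1 (chr13:34002740-34002800, plus strand): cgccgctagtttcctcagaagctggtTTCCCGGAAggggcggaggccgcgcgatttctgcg
Irf1 (chr11:53769898-53769958, plus strand): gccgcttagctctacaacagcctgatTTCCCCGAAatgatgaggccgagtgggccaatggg
Irf2 (chr8:46739495-46739555, plus strand): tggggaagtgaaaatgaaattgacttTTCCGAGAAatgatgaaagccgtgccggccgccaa
Aldoc (chr11:78324089-78324149, plus strand): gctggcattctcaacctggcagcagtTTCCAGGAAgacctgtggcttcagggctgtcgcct
In these 8 promoters the element was centred 2 bp from the mean summit of both libraries at Gtf2a2, 3 bp at Fastk, 8 bp at Akt2 and Nsmce1, 10 bp at Irf2, 11 bp at Irf1, 23 bp at Aldoc and 47 bp at Ripk1. The second set comes from a row of zinc finger genes on chromosome 13, and its elements lay 1 bp from the summit at Zfp458 and Zfp759, 2 bp at Zfp457 and 17 bp at Zfp58.
Zfp458 (chr13:67269166-67269226, minus strand): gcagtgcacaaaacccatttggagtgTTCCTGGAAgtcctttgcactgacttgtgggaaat
Zfp457 (chr13:67306485-67306545, minus strand): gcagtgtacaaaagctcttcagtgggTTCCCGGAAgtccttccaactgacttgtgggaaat
Zfp759 (chr13:67128122-67128182, plus strand): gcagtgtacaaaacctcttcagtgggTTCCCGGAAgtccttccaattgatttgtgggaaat
Zfp58 (chr13:67500547-67500607, minus strand): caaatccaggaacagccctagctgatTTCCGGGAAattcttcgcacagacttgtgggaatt
The third set gives the stretch at the summit of the Stat3 and Il6st promoters, which hold no TTCNNNGAA anywhere in their windows and so have no capitals.
Stat3 (chr11:100939730-100939790, minus strand): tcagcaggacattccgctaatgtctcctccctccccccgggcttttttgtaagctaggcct
Il6st (chr13:112463930-112463990, plus strand): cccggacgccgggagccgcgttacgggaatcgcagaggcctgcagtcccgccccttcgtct
The Stat3 summit lay 232 bp before the start and the Il6st summit 110 bp before it. The Stat3 summit was thus close to the edge of its window, which begins 250 bases before the start. Bases farther upstream were not read, and the Stat3 stretch is not centred on the summit. No match says only that these letters are not in the window.

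Library 1 had the higher pileup at all 807 members. There the members ran from 149 to 325 fragments with a median of 223, and in library 2 from 100 to 286 with a median of 126. The values of the libraries overlapped, but within a region the order was always the same. Library 2 in fact set the membership: 3448 regions reached 100 in library 1, 807 did so in library 2, and none of the latter fell short in library 1. These values chose the members and are given as a description. Just inside the threshold, regions near Vwc2, Gm5444 and Vwa5a had 100 fragments in library 2 and 156, 173 and 173 in library 1. Just outside it, regions near 3930402G23Rik, Hmbox1 and Gm13488 had 99 in library 2 and 219, 203 and 198 in library 1. Since 20 members stood at exactly 100 and 18 other regions at 99, the border divides regions of like coverage.

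**Figure D1:**
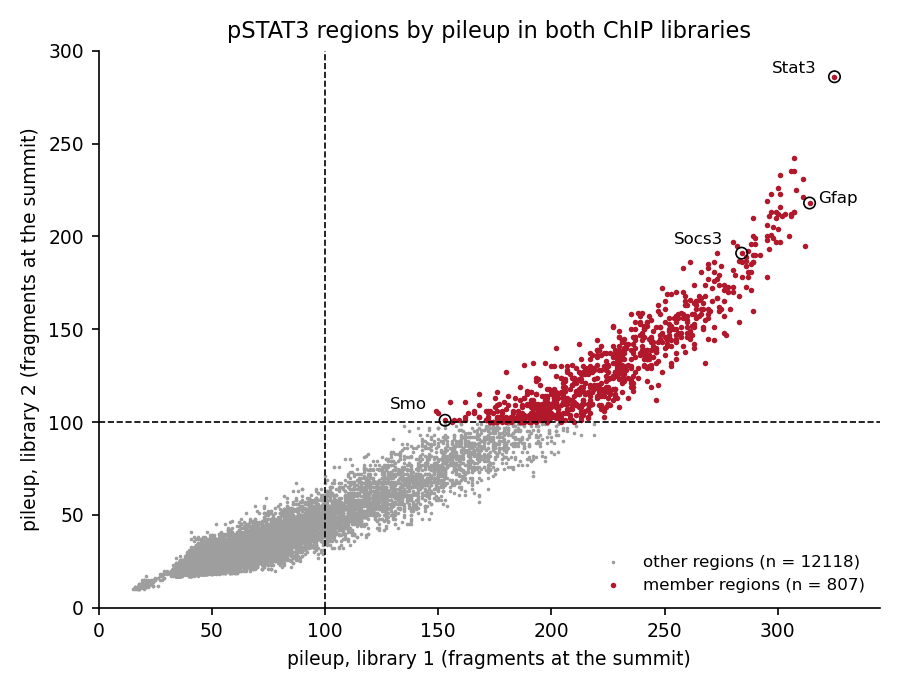
Pileup (fragments at the summit) of every reproducible region in library 1 (horizontal axis) and library 2 (vertical axis), with members in red, other regions in grey, dashed lines at 100 and 4 regions ringed and named. The line for library 2 alone separates the members, and the Stat3 promoter lies apart at 325 and 286 fragments.

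Pileups of the libraries were compared as a ratio, which shares its values with the rule and is a description. Over members the pileup of library 1 was a median of 1.74 times that of library 2, against 2.02 times over the 12118 other regions. By the lower pileup of both libraries, the median ratio was 2.08 for regions at 10 to 24 fragments, 2.00 at 50 to 74, 1.79 at 100 to 149, 1.60 at 150 to 199 and 1.41 over the 33 regions at 200 and over. The lower pileup was that of library 2 at every member, so this order sorts the ratio by its own denominator, and part of the fall is built in. The ratio was therefore also ordered by the geometric mean of both pileups and by library 1, a choice made after the data were seen. By the geometric mean, the median ratio was 2.00 at 10 to 49 fragments, 2.06 at 50 to 99, 1.93 at 100 to 149 and 1.39 at 250 and over. By library 1, it was 1.86, 2.10, 2.07 and 1.61 in the same classes. Below 100 fragments neither of these orders gave a fall, and above 100 both did. The local background differed by a median of 1.46 times between the libraries over all regions. The Stat3 promoter had the lowest ratio of any member, 1.14, followed by a region 18.7 kb upstream of BC007180 (307 and 242 fragments, ratio 1.27) and one within Diaph1, whose product nucleates actin (301 and 233, ratio 1.29). The highest ratios were at the promoter of Slc38a3, a glutamine transporter gene (246 and 112 fragments, ratio 2.20), near Prrc2b (223 and 103, 2.17) and near Gm24271 (230 and 108, 2.13). The position of the summit was also closer between libraries at members, with a median gap of 12 bp against 21 bp at other regions.

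Members were wide. Their median width was 950 bp with a range of 268 to 3365 bp, against 486 bp for the other regions. Median width was 367 bp at a lower pileup of 10 to 24 fragments, 886 bp at 100 to 149 and 1108 bp at 200 and over. Width thus rose with the pileup that chose the members and is no separate trait of them. The settings that drew the borders of peaks are not given. Socs3 had the widest member (3365 bp), ahead of one 106.5 kb from Pabpc6 (3261 bp) and one 72.9 kb from Irf2bp2 (3013 bp). The narrowest were in Smo (268 bp), 13.6 kb from a Robo1 start (334 bp; 196 and 114 fragments) and near Ndufa7, which encodes a subunit of respiratory complex I (394 bp; 241 and 150 fragments).

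**Figure D2:**
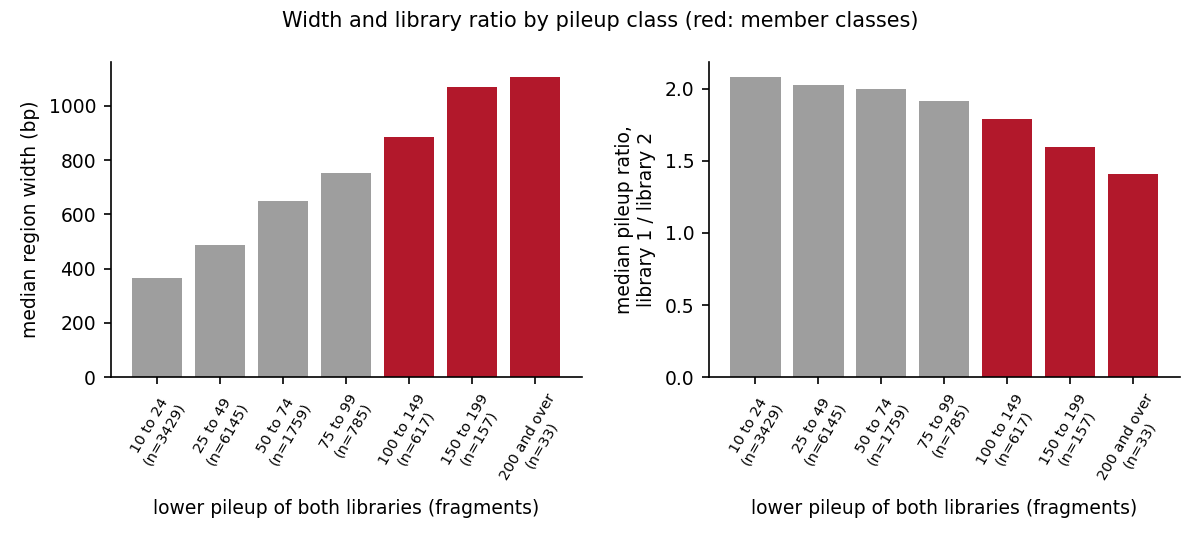
Median region width in bp (left) and median ratio of library 1 to library 2 pileup (right) for regions grouped by the lower pileup of both libraries, with the number of regions under each bar and member classes in red. Width rises from 367 to 1108 bp across the classes while the ratio falls from 2.08 to 1.41, partly by construction, since the lower pileup is mostly the ratio's denominator.

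Fold enrichment has the pileup as its numerator, so members had to be high in it unless their local background was high too. The authors' fold enrichment had a median of 32.5 over members in library 1 and 27.3 in library 2, and 707 members had a fold of 20 or more in both. Exceptions stood on a high background: 4 members were under 10-fold in at least 1 library, and 2 of them were under 5-fold. The region within Smo, the Hedgehog pathway transducer gene, at chr6:29748339-29748606 had 153 and 101 fragments but only 1.35-fold and 1.38-fold enrichment, on a local background of 114 and 73.8 fragments. The one over a start of Sfi1, a centrosome protein gene, at chr11:3193194-3193685 had 219 and 128 fragments at 2.26-fold and 2.07-fold. Over members as a whole the median background was 6.72 fragments in library 1 and 4.69 in library 2. The other 2 lay at a start of Gm21769 (187 and 105 fragments, 9.51-fold and 7.01-fold) and at a start of Gm21887 on the X chromosome, with Mid1 as the nearest protein-coding gene (234 and 113, 11.9-fold and 9.61-fold).

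By position, members differed little from weaker regions, with somewhat fewer far from a start. The midpoint lay within 1 kb of a listed transcription start in 215 members, or 26.6% (95% Wilson interval 23.7 to 29.8), against 23.7% of other regions (23.0 to 24.5). It lay 1 to 5 kb away in 12.9% against 14.9%, and 5 to 25 kb away in 33.0% against 29.3%. Over 25 kb from every listed start stood 222 members, or 27.5% (24.5 to 30.7), against 32.0% (31.2 to 32.9). Regions are not replicates and these intervals cover counting error only. A listed start was spanned by 22.2% of members and 16.6% of other regions, a measure that favours wide regions. Midpoints fell inside a listed transcript in 55.5% and 57.1%. Among members within 1 kb of a start, 53.0% were centred upstream of it, against 55.1% of other such regions. Exons, introns and UTRs were not assigned here.

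**Figure D3:**
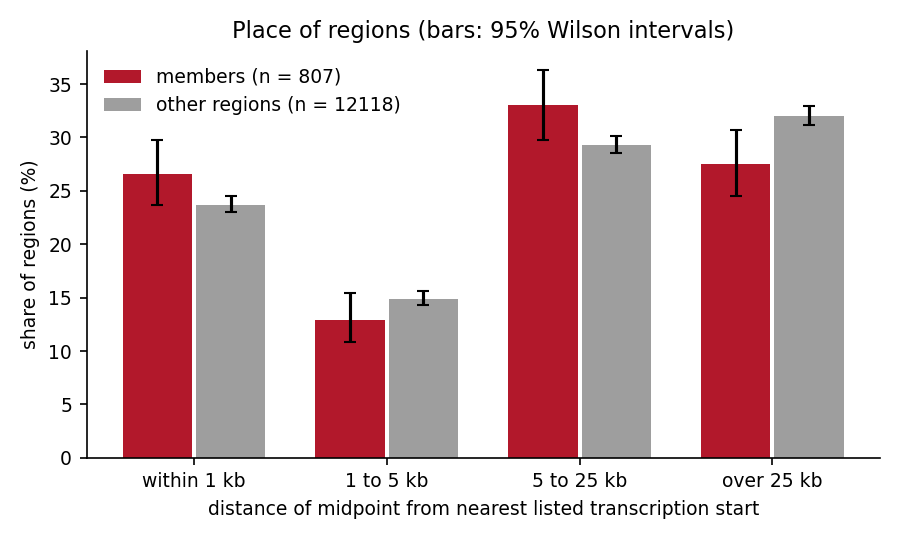
Share of regions in percent by the distance of the midpoint from the nearest listed transcription start, for 807 members (red) and 12118 other regions (grey), with 95% Wilson intervals. Within 1 kb stand 26.6% of members and 23.7% of other regions, and over 25 kb 27.5% and 32.0%.

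Some of the strongest members were far from any start. The highest of these lay inside Itpr1, which encodes an intracellular calcium channel, 29.3 kb from the nearest listed start (295 and 219 fragments). Next came regions 29.0 kb downstream of the start of Mcur1, a mitochondrial calcium uptake gene (300 and 212), and 79.6 kb from RP23-385N7.2 (306 and 211). Others stood 87.6 kb from Gm23959 (295 and 206), 26.9 kb from the start of Zzz3 and inside Ak5 (305 and 200), 114 kb from Gm28022 (295 and 200) and 55.6 kb from the start of the kinase gene Dyrk1a (289 and 200). The region near Pabpc6 completed the 8 strongest of this kind (295 and 198), so that these ran from 289 to 306 fragments in library 1 and from 198 to 219 in library 2. Distance names only the nearest start and not the gene a region acts on.

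Most members stood alone. At a spacing of 25 kb, 734 were single, 27 pairs and 5 triples were found, and 1 locus held 4. Another member was within 25 kb of 73 members (9.05%), while a region of any pileup was within 25 kb of 451 of them (55.9%, interval 52.4 to 59.3), against 45.1% of the other regions (44.2 to 46.0). The locus of 4 was Socs3, with the wide region over the start (284 and 191 fragments), another 5.96 kb upstream (264 and 161) and a pair downstream at 5.62 kb (252 and 149) and 6.76 kb (210 and 124). At Stat3, the promoter was joined by a region 7.52 kb upstream (215 and 121) and one 13.1 kb downstream of the start of Cavin1, a caveola coat gene listed by the authors as Ptrf (266 and 181). Elk3, an ETS factor gene, had 3 members 34.8 to 55.3 kb downstream of its start, with 199 to 241 fragments in library 1 and 105 to 131 in library 2. Bcl10, an adaptor in NF-kappaB signalling, had 3 members 29.9 to 38.9 kb upstream, with 186 to 230 and 112 to 134 fragments. The other triples lay around Gm25888 on chromosome 12 (199 to 292 and 112 to 190 fragments) and 69.4 to 85.3 kb from Rps18-ps2 on chromosome 4 (182 to 241 and 103 to 130).

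Protein-coding genes with a member no farther than 5 kb from a start numbered 296. They are 1.35% of the 21883 such genes in the RefSeq table, and 7.48% of the 3958 with any region that close. In the JAK-STAT pathway, 4 of 45 listed genes had a member, of 15 with any region. Stat3 had the strongest member of all, at chr11:100938836-100940313 over its start, with 325 and 286 fragments and 57.0-fold and 73.5-fold enrichment. Socs3 followed at chr11:117966894-117970258. Ifnar2, a subunit of the type I interferon receptor, had 276 and 165 fragments over its start, and Il6st, which encodes gp130, had 251 and 141. The start of Cish, a SOCS family gene, carried a region that stayed outside the set at 170 and 90, as did one 44.4 kb upstream of Lifr at 196 and 99.

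Of 36 genes listed as STAT3 targets from general knowledge, 27 had a region and 11 of these a member, 40.7% of those with a region against 7.48% over all protein-coding genes. The list was drawn up with earlier results of these data known and is no independent evidence. Gfap had a member of 2379 bp over its start with 314 and 218 fragments. Junb, an AP-1 factor gene, had one 2.41 kb downstream of its start (303 and 212) and another over the start (282 and 195). Stat3, Socs3 and Il6st, described above, are also among the 11. The other targets with a member were Gadd45g, Fosl2, Bcl6, Serpina3n, Mcl1 and Irf1, from 267 and 164 fragments at Gadd45g to 186 and 119 at Irf1. Genes of the lists named beyond 4 per list, and Cish, Lifr, Sox10 and Pdgfra, were chosen after their values were seen.

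Immediate early genes, which are switched on without new protein synthesis, had a member at 6 of 44 listed, or 22.2% of the 27 with a region. Beside Junb, Gadd45g and Fosl2 (241 and 146 fragments), these were Maff (221 and 116), Gadd45b (185 and 106) and Btg2, an antiproliferative gene (199 and 101). Fos had none within 5 kb, but a member stood 18.3 kb upstream of it (231 and 126).

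Among 45 oligodendrocyte lineage transcription factor genes, 29 had a region and 2 a member, 6.90% of those with a region, near the 7.48% over all protein-coding genes with one. This count moved with the threshold: it was 6 at a pileup of 80, 5 when regions were ranked by fold enrichment and 15 without library 2. These were Myt1, a zinc finger factor of progenitors (271 and 172 fragments), and Tcf4, an E-protein gene (176 and 103). Olig2, the specification factor, had a member 8.01 kb downstream (209 and 107). Progenitor markers had 4 of 28, or 28.6% of the 14 with a region: Pcdh15 (289 and 210), Xylt1 (286 and 187), Rnf122 (269 and 161) and Scrg1 (196 and 105). Myelin and mature oligodendrocyte genes had 2 of 34, or 16.7% of the 12 with a region, Bcas1 (208 and 104) and Plekhb1 (168 and 103). The strongest region listed for Mbp, the myelin basic protein gene, lay 33.1 kb downstream of a start. It had 84 and 44 fragments and was no member. Nor were those of Sox10, a lineage factor gene, 23.1 kb downstream (127 and 63), and Pdgfra, the PDGF receptor gene of progenitors, 66.7 kb downstream (120 and 51).

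Astrocyte marker genes had a member at 6 of 29, or 27.3% of the 22 with a region. After Gfap came Atp1b2, a sodium pump subunit gene (278 and 173 fragments), Aldoc, which encodes aldolase C (229 and 125), Vim, for vimentin (221 and 120), Mt1, for a metallothionein (209 and 109), and Mlc1 (184 and 101). None of 26 microglia genes had one, and 3 of them had any region. Neuron markers had 1 of 26, Map2 (191 and 100), or 20.0% of the 5 with a region. Endothelial and fibroblast markers had 1 of 26, Vwf (240 and 144), where 2 had a region. These lists cannot tell which cells the chromatin came from.

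Of 47 listed MAPK and PI3K genes, 7 had a member, 30.4% of the 23 with a region. Map3k1, an upstream kinase of the JNK cascade, led with 307 and 213 fragments, ahead of Akt2 (272 and 186), the kinase gene Tnik (259 and 165) and Map3k8 (255 and 143). Survival and apoptosis genes had 4 of 32, or 25.0% of the 16 with a region. Trp53, the p53 gene, had 280 and 182 fragments and Tnfrsf1a, a TNF receptor gene, 250 and 146. The others were Bbc3, for the death factor PUMA (204 and 124), and Mcl1, for a survival factor of the BCL2 family (236 and 119). The Trp53 member was centred 3.61 kb downstream of a listed start, outside every listed transcript of a protein-coding gene. Cell cycle genes had 2 of 43, or 14.3% of the 14 with a region, Rb1 (222 and 141) and Cdkn2d (207 and 128). These members were centred 1.69 kb and 3.1 kb from the starts of Rb1 and Cdkn2d. Their summits fell in the promoter windows of other genes, Lpar6 and Kri1. With a gene window of 1 kb the cell cycle count was 0. The Notch, BMP and Wnt list had 2 of 44, or 8.00% of the 25 with a region, Notch1 (276 and 174) and Bmpr1b (213 and 106). Interferon and NF-kappaB genes had 3 of 37, or 18.8% of the 16 with a region, Irf2 (221 and 139), Irf9 (227 and 124) and Irf1. ETS, KLF and C/EBP genes had 2 of 36, or 11.8% of the 17 with a region, Etv6, a repressor of the ETS family (298 and 205), and Bcl6 (227 and 141). Beside these stands the 7.48% over all protein-coding genes with a region, and with so few genes a list a share turns on single regions.

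**Figure D4:**
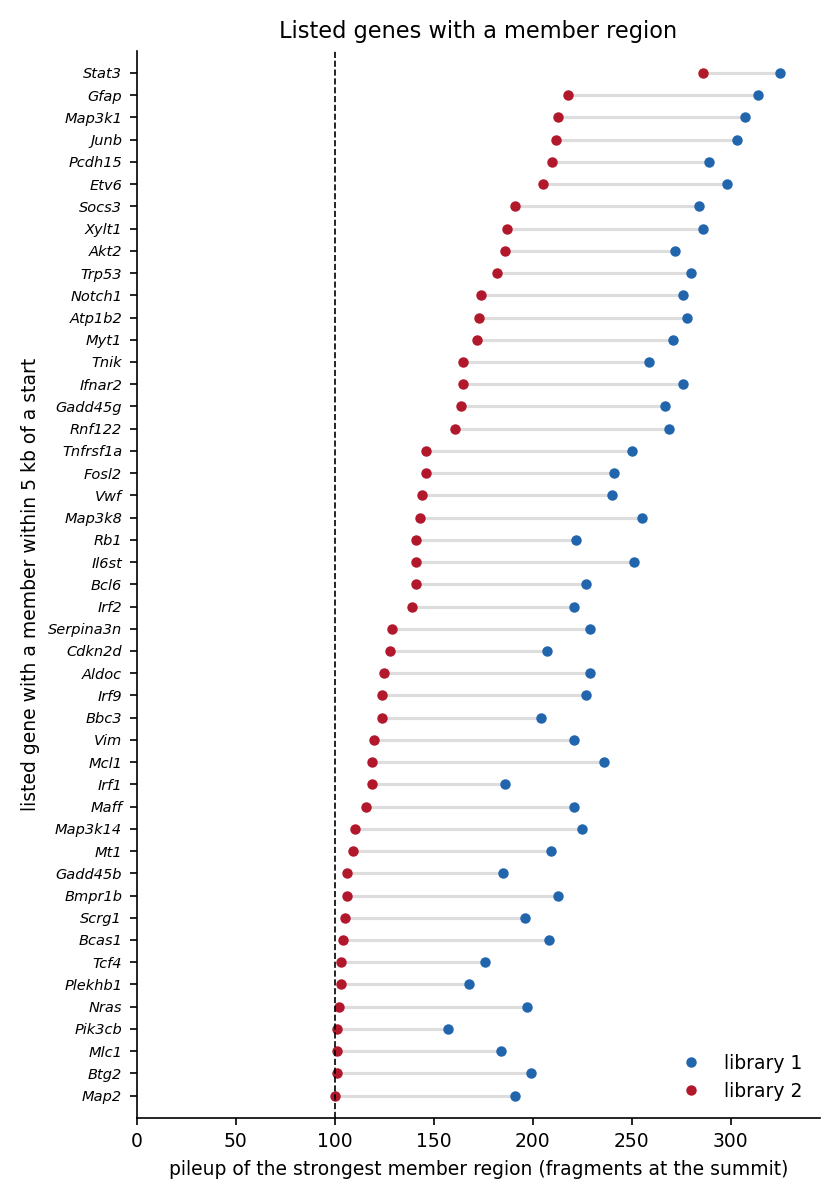
Pileup of the strongest member within 5 kb of each of the 47 listed genes that have one, in library 1 (blue) and library 2 (red), with the threshold of 100 dashed. The genes run from Stat3 at 325 and 286 fragments down to Map2 at 191 and 100, and library 1 is the higher in each.

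Many of the strongest regions near starts belonged to no listed group. Rpl22, a gene of the large ribosomal subunit, had 301 and 223 fragments over its start, and Psmd3, for a proteasome subunit, had 307 and 213. Ccdc150 (299 and 213), Cd9, a tetraspanin gene (297 and 213), Rgs20, for a regulator of G protein signalling (306 and 212), and Lmna, for lamins A and C (302 and 211), were at a like level. Zfp608, a zinc finger gene (299 and 210), C1qtnf1 (300 and 204), Lrrtm2, for a synaptic adhesion protein (297 and 201), Rab18, a small GTPase gene (290 and 199), and Tut1, for an RNA uridylyltransferase (301 and 197), came next. Tmem176b (261 and 186), Cdk5rap2, a centrosome gene (288 and 185), and Gtf2a2, for a subunit of the general factor TFIIA (286 and 184), complete, with the listed genes above, the 25 strongest regions near a protein-coding start. Over those 25, library 1 ran from 261 to 325 fragments and library 2 from 182 to 286. Not all of them lay at a start. The members at Cd9, Rgs20 and C1qtnf1 were centred 4.37, 3.72 and 4.34 kb from the nearest listed start, inside those genes.

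Words in the RefSeq descriptions of the 296 genes were set beside those of the 3958 with any region nearby. The word kinase stood in 4.39% against 4.42%, receptor in 4.73% against 4.65%, zinc finger in 3.72% against 3.76% and ribosomal protein in 1.35% against 1.44%. Phosphatase stood in 1.01% against 1.74%, mitochondrial in 1.01% against 1.77% and channel in 1.69% against 1.09%. Transcription factor stood in 2.70% (8 genes, among them Myt1, Runx1 and Tfeb) against 1.09%. These shares are descriptions and were not tested.

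In promoter windows, the only sequence read, the STAT element was more frequent under members than under weaker regions. Of 165 promoter windows whose start lay in a member, 62 held TTCNNNGAA on either strand, or 37.6% (interval 30.5 to 45.2), against 14.6% (13.1 to 16.2) of 1949 windows with another region over the start and 8.30% of all 32851 windows. The stricter form TTCCNGGAA, which is contained in the first, was in 23.0%, 5.03% and 1.15%. The AP-1 element TGANTCA was in 3.03%, 4.98% and 7.81%, and the GC box GGGCGG in 49.7%, 62.5% and 35.7%. Wide regions span starts far from their summits, so windows that hold the summit itself were also counted, a choice made after the data were seen. Summits of 94 members (11.6% of members) and 1075 other regions (8.87% of those) fell in a window. TTCNNNGAA was present at 48.9% (39.1 to 58.9) of these members and 18.9% (16.7 to 21.3) of these other regions. The element is not part of the rule, but windows share sequence and are not replicates.

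The share with an element rose with pileup up to 149 fragments and was lower, within wide intervals, above that. Counted here were regions with their summit in a window. At a lower pileup of 10 to 24 fragments 11.5% of 312 such regions held TTCNNNGAA and 0.641% the stricter form. At 50 to 74 fragments the shares were 27.9% and 14.5%, and at 75 to 99 they were 32.6% and 26.7%. At 100 to 149 they were 37 of 74 regions (interval 38.9 to 61.1%) and 32.4% (22.9 to 43.7). Of the 20 regions at 150 and over, 9 held TTCNNNGAA (45.0%, 25.8 to 65.8) and 5 the stricter form (25.0%, 11.2 to 46.9). The GC box was found for 63.1% of regions in the lowest class and 10 of 20 in the highest (29.9 to 70.1%). Where an element was present, its centre lay a median of 13.5 bp from the summit at members and 26 bp at other regions. It was within 25 bp at 33 of 46 members (71.7%, 57.5 to 82.7) and at 49.3% (42.5 to 56.1) of others. For the stricter form, both medians were close, 13 and 14 bp.

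Other spacings of the half-sites were counted in the same summit windows, a choice also made after the data were seen. With 3 bases between TTC and GAA the shares were those given above. With 0, 1, 2, 4, 5, 6 and 7 bases, member shares were 1.06%, 5.32%, 12.8%, 5.32%, 14.9%, 6.38% and 7.45%, and those of other regions 1.86%, 6.88%, 11.5%, 6.05%, 8.56%, 8.37% and 7.26%. At each of these 7 spacings the member interval contained the share of the other regions, except at 5 bases, where it began at 9.08%. Several of the strongest promoters, among them Stat3, Rpl22, Tut1, Junb and Il6st, held no TTCNNNGAA in the window.

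**Figure D5:**
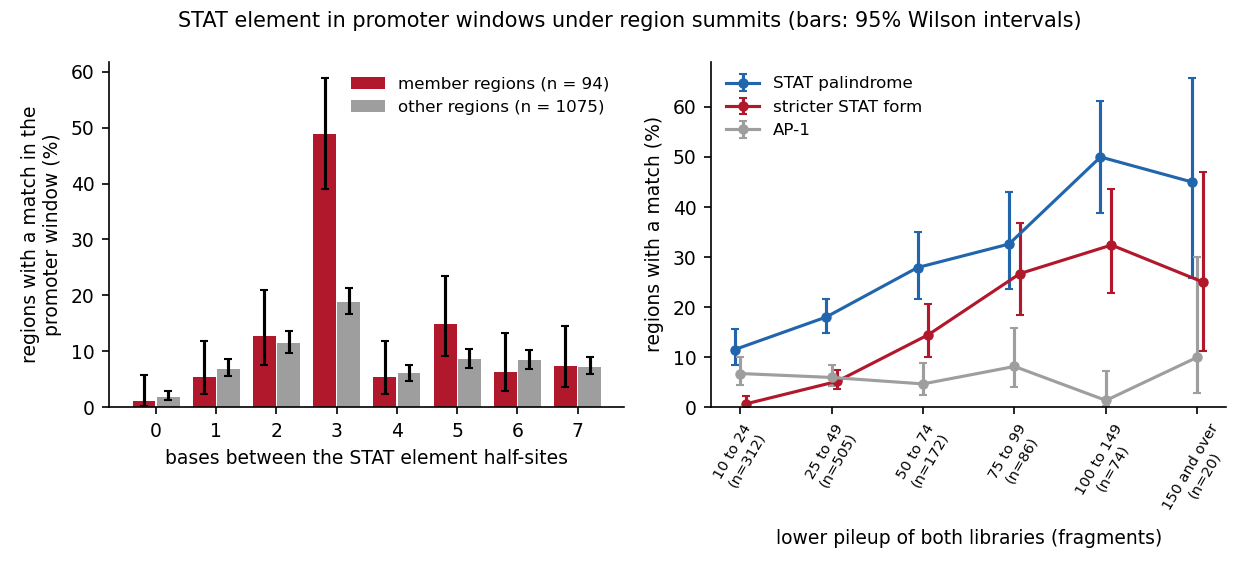
Left, share of regions with both half-sites at each spacing in a promoter window that holds their summit, for 94 members (red) and 1075 other regions (grey). Right, share with the STAT palindrome, its stricter form and the AP-1 element by the lower pileup of both libraries, all with 95% Wilson intervals; at 3 bases members reach 48.9% and others 18.9%.

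A run of zinc finger genes on chromosome 13 stood out, and was chosen after its values were seen. Regions within 1 kb of a start of a gene named Zfp numbered 72, and 6 of them were members, 8.33% against 6.95% of all regions so placed. All 6 lay within 373 kb of chromosome 13. Zfp58 had 259 and 168 fragments, Zfp458 253 and 169, Zfp457 236 and 146, Zfp429 203 and 108, Zfp759 200 and 108 and Zfp595 172 and 102. Neighbours with weaker regions were Zfp455 (152 and 69), Zfp85os (111 and 58), Zfp85 (88 and 41), Zfp87 (68 and 40) and Zfp738 (43 and 23). Each of the 6 member promoters held the stricter STAT form. The printed stretches of Zfp457 and Zfp759 were identical at 58 of 61 bases, and those of Zfp458 and Zfp457 at 49. Reads from such like copies may be shared between the genes, so the level at each is uncertain. The stretch at Zfp429 was less alike, identical to those of the other members at 17 to 26 of 61 bases. Without these 6 regions, 35.2% of the windows with a member over the start held TTCNNNGAA.

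Members were found on every chromosome from 1 to 19, on X and on Y. On chromosomes 1 to 19 their share of regions ran from 4.39% on chromosome 7 (interval 3.17 to 6.04) to 8.24% on chromosome 6 (6.44 to 10.5). On X, 3 of 193 regions were members, or 1.55% (0.53 to 4.47), and one of these was the weakly enriched region at Gm21887. The Y chromosome had 1 member among 3 regions. The sex of the animals is not in the labels.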

How the data were processed

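ChIP-seq for pSTAT3 was measured in 2 libraries. The submitters' processing notes name CASAVA 1.8, Bowtie2, MACS2 and build GRCm38.p3, without roles or options. The authors deposited 1 peak list per library and 1 table of reproducible regions with Ensembl transcripts. The pileup signal is the count of fragments at a summit, per the file headers; read totals are not in these files, so depth is unknown and the libraries were not rescaled. Fold enrichment is the ratio over local background deposited by the authors; background was recovered as (pileup + 1) / fold. The −log10 columns of the deposited peak lists were used only to check the region table, whose columns headed pileup and fold_enrichment held the mean −log10 p of both libraries within 0.001 in 12924 of 12925 regions. The p-value column of that deposited table holds the irreproducible discovery rate (IDR), at most 0.05.

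A region took its highest overlapping peak in each library. Distances run from its midpoint to the nearest listed start. Gene names were matched to RefSeq (GRCm38.p6); 543 genes stood in 16 lists, and 1 listed name was not matched. Motifs were searched on both strands. Named were the 25 strongest members near protein-coding starts, the 8 strongest over 25 kb away, up to 4 genes per list, the extremes of ratio, width, fold and threshold, the loci with most members (all 5 tied triples, where the rule took 4 loci) and Stat3, Socs3, Junb, Gfap, Il6st, Fos, Olig2 and Mbp. Promoters with printed sequences were a separate choice. Members and lists were chosen with earlier results of these data known. The work used Python 3.11.15 with pandas 2.3.3, numpy 2.4.6, matplotlib 3.10.9 and scipy 1.17.1, and overlaps, member choice and motif counts were tested on simulated data. Alternatives changed the threshold, overlap, IDR, library, ranking and windows. The inputs were not analysed here.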

Additional observations from a re-analysis of the deposited data

How the results depend on the processing

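The share within 1 kb of a start stayed within its interval of 23.7 to 29.8% under every alternative run. All 12925 regions together stood at 23.9%, inside that interval, so this check could hardly fail. Whether a difference from the other regions reversed was not tested, since values of the other regions were not recomputed. The shares over 25 kb given below stand beside 31.7% of all regions. A pileup threshold of 80 gave 1384 members and 497 genes, and one of 150 gave 190 members, 62 genes and 24.2% over 25 kb from a start. Taking as many peaks of library 2 as passed in library 1 gave 3054 members, 1109 genes, 30.9% over 25 kb and a median width of 757.5 bp. Using 1 library alone gave 807 to 3448 members, 296 to 1255 genes, 27.5 to 30.7% over 25 kb, a median width of 734 to 950 bp and 23.9 to 37.6% of windows with TTCNNNGAA; without library 1 nothing changed, and without library 2 the set grew. A gene window of 25 kb gave 749 genes. The TTCNNNGAA share was 48.9% for windows whose start lay within 200 bp of a member's midpoint, and 48.9% for members with their summit in a window. Ranking by fold enrichment kept 659 of the 807 members. Of 160 counts for the gene lists, 107 stayed within 1.5 times, 34 were higher and 19 lower. An overlap of at least 50% of the peak, an IDR of 0.01 or below and library 2 alone kept 807, 806 and 807 members. List counts under these settings could hardly move, so the 107 overstate how stable the lists were. Leaving out the 2 members under 5-fold, added after the data were seen, left the number, both place shares, width, gene count and TTCNNNGAA share all but unmoved, with 805 members and 295 genes. No paired analysis was possible because the inputs, which share replicate numbers with the ChIP libraries, were not analysed here. Unknown depth limits any comparison of pileup between libraries.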

Other observations

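High pileup in both libraries also occurred outside the reproducible table. Of 855 library 2 peaks of pileup 100 or more that shared a base with such a peak of library 1, 47 lay outside every region, with 120 to 302 fragments in library 2. Their fold enrichment was low, with a median of 1.83 (1.41 to 3.24) in library 2 and 1.27 (1.22 to 2.64) in library 1. On chromosome 9 there were 14 of them, and 3 lay on unplaced scaffolds.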
